A study of Bos taurus with 28 samples.

Results

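BLTP3B, PHF3, LAMC1, LOC526041, CCAR1 and CUX1 are genes whose signal in mammary tissue of heterozygous cows lay off the midpoint between the 2 homozygous groups. They were chosen by that gap, as measured on these arrays, and were followed through every probe set that the platform annotation ties to exactly 1 of these symbols, which gave 15 of the 24016 probe sets tested and 6 of 9155 genes. BLTP3B and LOC526041 had 1 probe set each, PHF3 and CCAR1 had 2, CUX1 had 3 and LAMC1 had 6.

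The samples were surgical biopsies of mammary gland from 28 lactating dairy cows of the Holstein-Friesian breed, midway through lactation and fed a control diet of silage and concentrates. Each cow gave 1 array, an Affymetrix Bovine Genome Array hybridised with biotin-labelled RNA. The cows differed in a natural variant of DGAT1, which encodes an enzyme of the last step of triacylglycerol synthesis, with lysine (K) or alanine (A) at a single residue. There were 13 KA cows (labelled A232K), 11 AA cows (A232A) and 4 KK cows (K232K). Only the genotype at DGAT1 is given for these cows, so other differences between the animals cannot be told apart from it, and 4 KK arrays limit the precision of the midpoint.

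If each K allele adds the same amount to a signal, heterozygotes lie halfway between the homozygotes. Departure here means the KA mean minus the midpoint of the AA mean and the KK mean, on the log2 scale. BLTP3B, listed in older annotation as UHRF1BP1L, belongs to the bridge-like lipid transfer proteins, long rod-shaped proteins known from human and yeast cells that carry lipids between membranes at contact sites. PHF3 and CCAR1 act in transcription in human cells: PHF3 binds the phosphorylated tail of RNA polymerase II, and CCAR1 works with the Mediator complex and nuclear receptors. CUX1 is a homeobox transcription factor, and in human and mouse the same gene also gives rise to CASP, a protein of the Golgi membrane. LAMC1 encodes the gamma 1 chain of most laminins of the basement membrane, the layer on which mammary epithelium rests. LOC526041 is listed in RefSeq as protein coding with no gene name, and no role is given to it here.

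The departure chose these genes, so its values are a description and carry no test. Over all probe sets, 1 of 24016 (0.00416%) passed an adjusted p under 0.05 for the departure (limma, all 28 arrays), and it was the BLTP3B probe set. At an unadjusted p under 0.05 there were 2356, or 9.81%, BLTP3B included. For each gene the lead probe set is the one with the largest ratio of departure to standard error, again a choice made on these values. Each probe set has its own baseline in the deposited values, so signals of different probe sets cannot be ranked by level. A coarse level class read from the rounding of the values placed 2 of the 15 probe sets in the bright class, 10 in the intermediate and 3 in the dim class.

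Arrays AA 2 and AA 9 stood apart, with SDs over probe sets of 0.86 and 0.78, against 0.21 to 0.35 in the other 26 arrays. Genotypes were not balanced over the array numbers that the sample titles carry. Numbers 29 to 42 held 2 KA, 8 AA and 4 KK arrays, and numbers 43 to 56 held 11 KA, 3 AA and 0 KK arrays. The sources used here do not say what these numbers mark.

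BLTP3B had the lowest KA signal relative to both homozygous groups. Its probe set, Bt.29411.1.S1_at, had log2 values from -0.96 to -0.05 (median -0.71) in the 13 KA cows and from -0.67 to 0.95 (median 0.20) in the 11 AA cows. The 4 KK cows had -0.08, 0.14, 0.64 and 0.23. All 13 KA cows lay below the midpoint and 12 of them below every KK cow, while 3 AA cows lay within the KA range. The departure was -0.83 (SE 0.14), a 1.78-fold difference, with a mean of -0.65 ± 0.26 in KA (SD, n = 13), 0.12 ± 0.46 in AA (SD, n = 11) and 0.23 ± 0.30 in KK (SD, n = 4).

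CCAR1, the coactivator, was also lower in KA cows on its lead probe set, Bt.27024.1.A1_at. The KA values ran from -0.91 to -0.10 (median -0.43) and the AA values from -0.69 to 0.50 (median 0.12). The KK cows had 0.05, -0.16, 0.78 and 0.09. The KK mean was 0.19 ± 0.41 (SD, n = 4), with KK 3 the highest, and 11 of 13 KA cows lay below every KK cow. The departure was -0.54 (SE 0.12), or 1.46-fold, and -0.44 without KK 3.

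LOC526041 followed the same direction on Bt.10339.1.A1_at, a probe set of the dim class. Its KA values ran from -0.30 to 0.22 (median -0.12) and its AA values from -0.14 to 0.92 (median 0.22). KK cows had 0.44, 0.17, 0.37 and 0.39. One KA cow, KA 2 at 0.22, reached into the KK range, and the 2 highest AA values, 0.92 and 0.73, belonged to AA 2 and AA 9. The departure was -0.43 (SE 0.09), or 1.35-fold, and -0.37 without AA 2 and AA 9.

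PHF3, the polymerase-binding protein, had a lead departure of -0.56 (SE 0.17), or 1.47-fold, on Bt.20639.1.A1_at. The KA values ran from -0.57 to 0.22 (median -0.26), the AA values from -1.43 to 1.01 (median 0.17), and the KK cows had 0.67, 0.85, 0.21 and 0.04. Array AA 2, at -1.43, was the lowest of all 28. Without it and AA 9 the AA mean was 0.33 ± 0.36 (SD), against 0.16 ± 0.62 (SD, n = 11) with them, and the departure was -0.64.

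LAMC1, the laminin chain, went the other way on its lead probe set, Bt.20793.1.A1_s_at, whose suffix marks probes shared between several transcripts. KA values ran from -0.16 to 0.38 (median 0.13) and AA values from -1.33 to 0.16 (median -0.03). The KK cows had -0.22, -0.56, -0.36 and -0.31, all below every KA cow. The departure was 0.40 (SE 0.11), or 1.32-fold. AA 2 gave the lowest value, -1.33, and without AA 2 and AA 9 the departure was 0.34.

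CUX1 had its lead departure, -0.27 (SE 0.08), or 1.21-fold, on Bt.8487.1.A1_at. KA values ran from -0.52 to 0.09 (median -0.39) and AA values from -0.48 to 0.02 (median -0.21). The KK cows had 0.19, 0.13, 0.23 and 0.16, above all 13 KA cows and all 11 AA cows. Here the gap was to KK: KA minus AA was -0.10 (SE 0.08), whereas KA minus KK was -0.45 (SE 0.11).

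**Figure D1:**
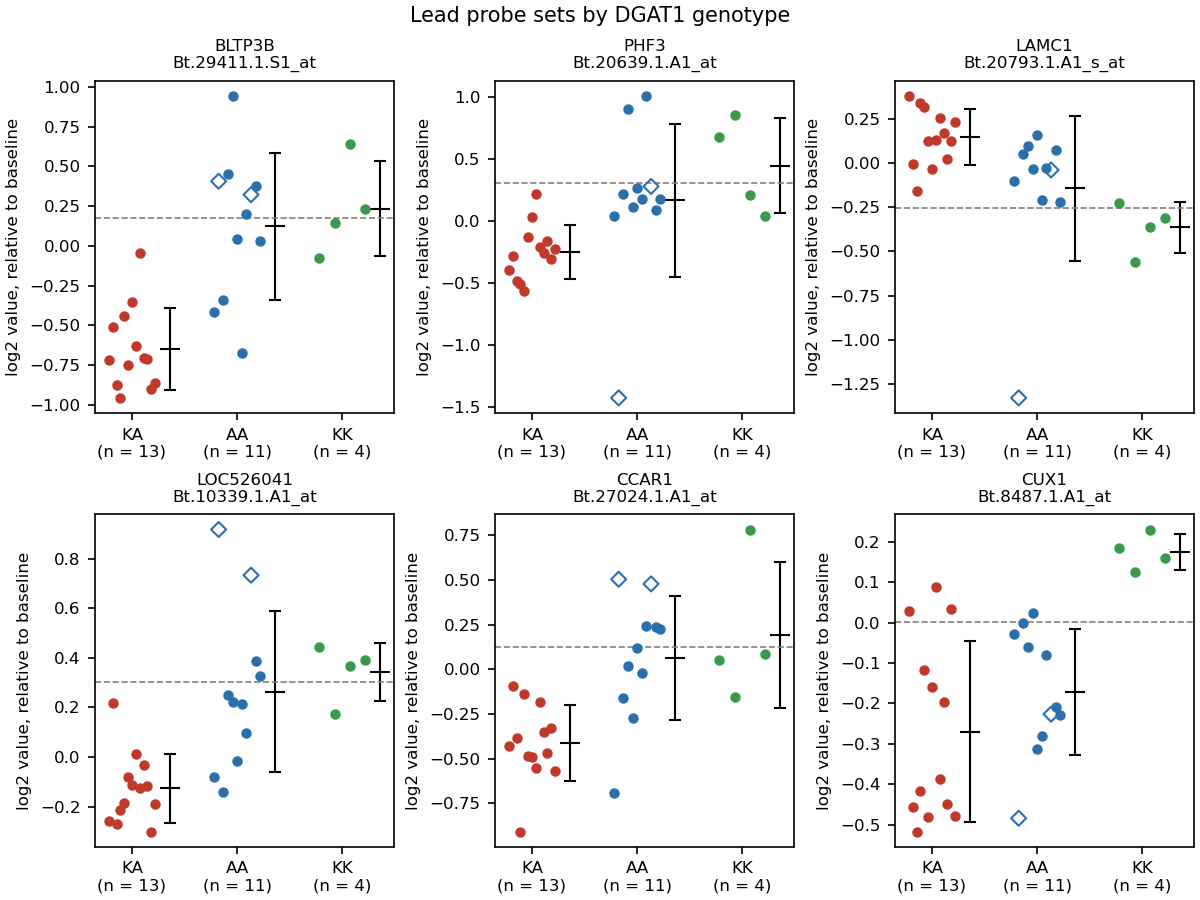
Log2 values of the lead probe set of each gene (y axis, relative to a baseline per probe set) in KA, AA and KK cows (x axis). Points are cows, hollow diamonds are AA 2 and AA 9, black bars are means ± SD and the dashed line is the midpoint of the AA and KK means. All 13 KA cows lie on one side of it in every panel but that of CUX1, where 10 of 13 lie below.

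As in CUX1, the KA means of the other lead probe sets lay on the same side of both homozygous means. KA minus AA and KA minus KK were -0.77 (SE 0.14) and -0.89 (SE 0.20) in BLTP3B, -0.48 (SE 0.12) and -0.61 (SE 0.17) in CCAR1, and -0.39 (SE 0.09) and -0.47 (SE 0.13) in LOC526041. They were -0.42 (SE 0.17) and -0.70 (SE 0.24) in PHF3, and 0.29 (SE 0.11) and 0.51 (SE 0.16) in LAMC1. These differences share the KA arrays and follow from the choice of genes, so they are values without a test. The KA mean lay outside both homozygous means in 13 of the 15 probe sets, and in 67.0% of all probe sets. KA and KK arrays did not overlap in 2 of the 15, the leads of LAMC1 and CUX1, and in 0.162% of all probe sets. The choice of genes used this contrast, so nothing is read from these counts.

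Probe sets of the same gene did not always share a direction. Both PHF3 probe sets lay lower in KA cows, with a departure of -0.37 (SE 0.17) on Bt.15306.1.A1_at. That probe set had KA values from -0.60 to -0.09 (median -0.44), AA values from -1.90 to 0.65 (median -0.07), and KK values of 0.18, -0.32, 0.53 and 0.01. All 13 KA cows lay below the midpoint there too. CCAR1 also kept its direction, but its Bt.3197.1.A1_at departed by only -0.20 (SE 0.12). Its KA values ran from -0.48 to 0.23 (median -0.19), its AA values from -0.91 to 0.39 (median 0.11), and 9 of 13 KA cows lay below the midpoint.

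CUX1 probe sets went in opposite directions. Against the lead at -0.27, Bt.20129.2.S1_at departed by 0.41 (SE 0.12) and Bt.18702.1.A1_at, of the dim class, by 0.15 (SE 0.07). On Bt.20129.2.S1_at KA values ran from 0.08 to 0.75 (median 0.42), AA values from -1.06 to 0.57 (median 0.12), and KK cows had 0.12, -0.27, 0.15 and -0.24. All 13 KA cows lay above the midpoint of that probe set, and 12 of 13 lay above every KK cow. The sources used here do not say which CUX1 transcripts each probe set reads.

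The 6 LAMC1 probe sets ranged from a departure of -0.16 (SE 0.11) to the 0.40 of the lead. Bt.23129.2.S1_at, at 0.38 (SE 0.16), was close to the lead: its KA values ran from -0.13 to 0.68 (median 0.28), its AA values from -1.43 to 0.75 (median 0.06), and the KK cows had -0.14, -0.35, -0.28 and -0.04. Here too all 13 KA cows lay above the midpoint. Bt.19181.1.A1_at, of the dim class, departed by 0.16 (SE 0.10) and Bt.19181.2.S1_at by 0.12 (SE 0.12). Bt.25008.1.A1_at had a departure of -0.0023 (SE 0.08). The only bright LAMC1 probe set, Bt.23129.3.S1_a_at, was the one at -0.16, opposite to the lead. In all, 6 of the 15 probe sets had a positive departure and 9 a negative one, and 52.8% of all probe sets had a positive one.

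**Figure D2:**
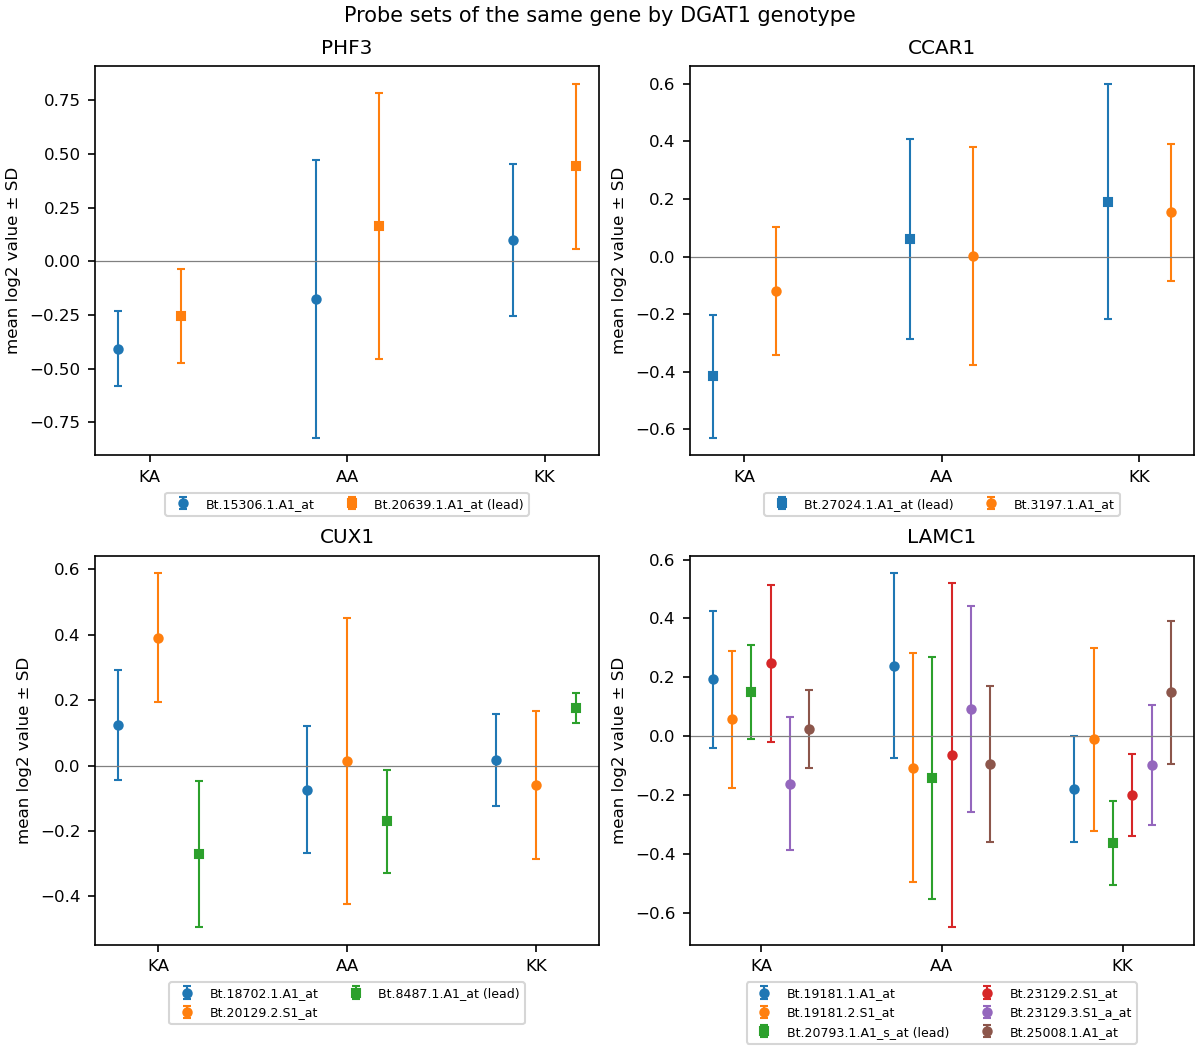
Mean log2 value ± SD (y axis) in KA, AA and KK cows (x axis) for each probe set of PHF3, CCAR1, CUX1 and LAMC1, with squares for lead probe sets. The PHF3 and CCAR1 probe sets lie lowest in KA, while the CUX1 lead at -0.27 in KA stands opposite Bt.20129.2.S1_at at 0.39, and the LAMC1 probe sets scatter.

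Deviations from the genotype means do not use the differences between genotypes that chose the genes, so they were correlated between probe sets over the 28 arrays. Probe sets on 1 array share its overall shift. In all, 35 pairs were tested, 20 of them within a gene and 15 between leads, with two-sided permutation of the cows within genotypes. None passed by Pearson's r after adjustment over the 35 pairs, where the smallest adjusted p was 0.0646. By Spearman's rho 5 pairs within a gene and 1 between leads passed. The share among pairs of other probe sets was not measured. These counts therefore do not show that probe sets of a gene go together more than unrelated ones. PHF3 had r = 0.77 (permutation p = 0.00386, adjusted 0.0646) and rho = 0.35 (permutation p = 0.0909, adjusted 0.245) between its probe sets. This r rested on AA 2 and AA 8, the farthest arrays, and was 0.21 without them. Here and below the 2 farthest arrays are those with the most extreme deviations on 1 probe set of the pair, not on both. For the PHF3 pair r was 0.46 without AA 2 and AA 9, and 0.80 and 0.65 within array numbers 29 to 42 and 43 to 56. Both AA 2 and AA 8 are among the lower numbers, so here and below an r within those numbers includes them.

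CCAR1 probe sets had r = 0.47 (permutation p = 0.0275, adjusted 0.0899) and rho = 0.58 (permutation p = 0.00179, adjusted 0.0313), with r = 0.39 without the 2 farthest arrays. Within the lower and the upper numbers their r was 0.62 and 0.68. In CUX1 the probe sets Bt.18702.1.A1_at and Bt.20129.2.S1_at had r = 0.46 (permutation p = 0.0282, adjusted 0.0899) and rho = 0.53 (permutation p = 0.00529, adjusted 0.0329), and r was 0.42 without the 2 farthest and 0.42 and 0.66 within the lower and the upper numbers. The CUX1 lead had r = -0.01 (permutation p = 0.963, adjusted 0.963) and rho = 0.01 (permutation p = 0.977, adjusted 0.994) with Bt.18702.1.A1_at. With Bt.20129.2.S1_at it had r = 0.28 (permutation p = 0.122, adjusted 0.203) and rho = 0.17 (permutation p = 0.381, adjusted 0.635), and r was -0.0049 without AA 1 and AA 2. The CUX1 probe set that gave the lead thus did not pass with either of the other 2, while those 2 passed with each other by rho.

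Among the 15 LAMC1 pairs r ran from -0.55 to 0.71, and 3 passed by rho. The lead and Bt.19181.2.S1_at had r = 0.71 (permutation p = 0.00554, adjusted 0.0646) and rho = 0.52 (permutation p = 0.00497, adjusted 0.0329), and r was 0.37 without AA 2 and KA 12. Within the lower and the upper numbers r was 0.82 and 0.36. The lead and Bt.23129.2.S1_at, the pair with the largest departures, had r = 0.50 (permutation p = 0.0878, adjusted 0.181) and rho = 0.54 (permutation p = 0.00468, adjusted 0.0329), with r = 0.39 without the 2 farthest arrays and 0.87 and 0.52 within the lower and the upper numbers. Bt.19181.1.A1_at and Bt.23129.2.S1_at had r = 0.48 (permutation p = 0.0253, adjusted 0.0899) and rho = 0.59 (permutation p = 0.00151, adjusted 0.0313), with r = 0.29 without AA 2 and AA 9 and 0.61 and 0.63 within the lower and the upper numbers. The lowest r, between Bt.23129.3.S1_a_at and Bt.25008.1.A1_at, did not pass by either measure (rho = -0.41, adjusted permutation p = 0.116).

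Between leads, BLTP3B and CCAR1 passed by rho. They had r = 0.46 (permutation p = 0.0282, adjusted 0.0899) and rho = 0.54 (permutation p = 0.00564, adjusted 0.0329). Their r was 0.72 without AA 5 and AA 7, the farthest arrays in BLTP3B, and 0.42 without AA 2 and AA 9. Within the lower and the upper numbers their r was 0.40 and 0.56. LOC526041 and CCAR1 had r = 0.58 (permutation p = 0.00366, adjusted 0.0646) and rho = 0.43 (permutation p = 0.0338, adjusted 0.116), and r was 0.45 without AA 2 and AA 9, and 0.59 and 0.19 within the lower and the upper numbers. PHF3 and LAMC1 had r = 0.63 (permutation p = 0.0604, adjusted 0.144) but rho = 0.06 (permutation p = 0.777, adjusted 0.877), and r was -0.03 without AA 2 and AA 8, and 0.77 and -0.27 within the lower and the upper numbers. LAMC1 and LOC526041 had r = -0.56 (permutation p = 0.0253, adjusted 0.0899) and rho = -0.26 (permutation p = 0.186, adjusted 0.434), and r was -0.26 without AA 2 and KA 3, and -0.82 and 0.12 within the lower and the upper numbers.

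**Figure D3:**
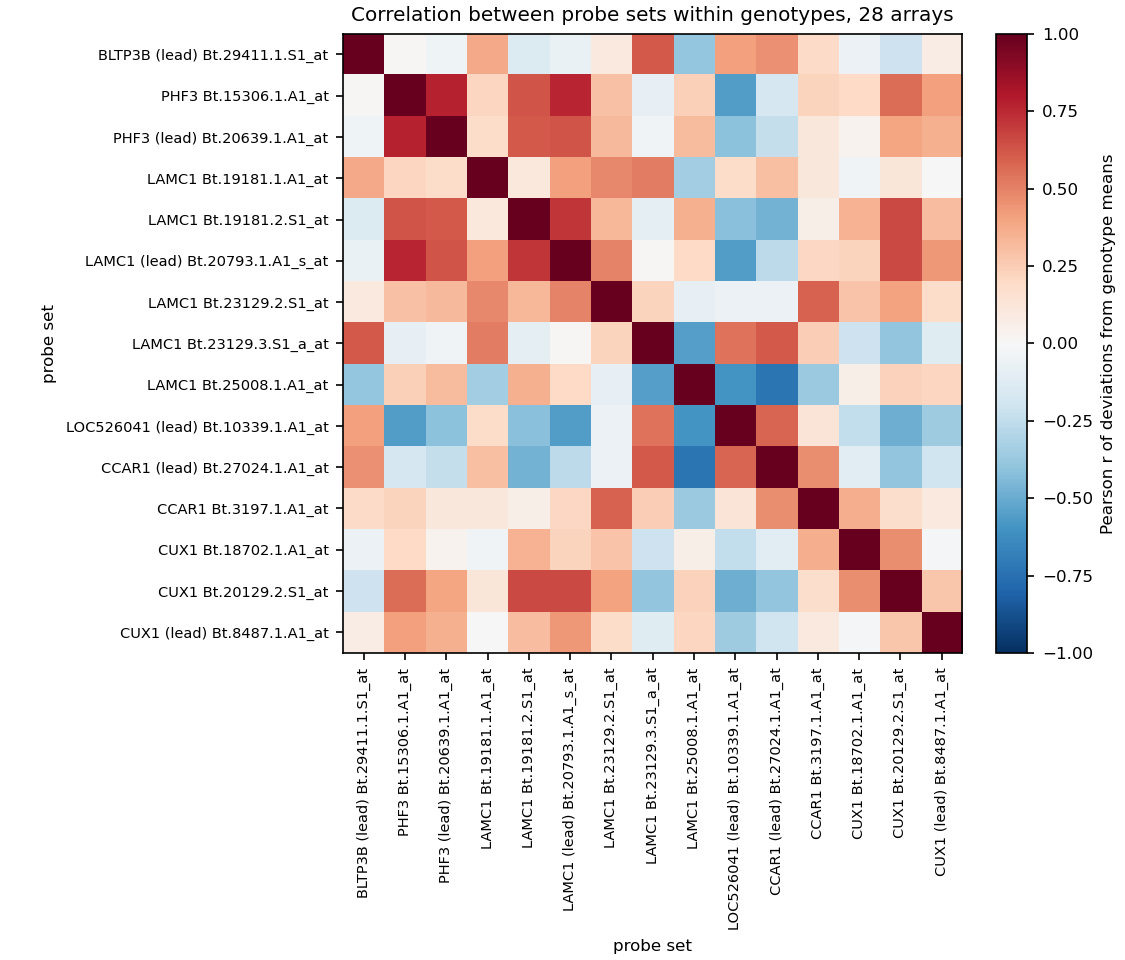
Pearson r of the deviations from genotype means over 28 arrays for each pair of the 15 probe sets (both axes), from blue (negative) to red (positive). The PHF3 pair is at 0.77 and the LAMC1 lead and Bt.19181.2.S1_at at 0.71, and some pairs of different genes are as strong, such as PHF3 Bt.15306.1.A1_at with the LAMC1 lead at 0.76 and the CCAR1 lead with LAMC1 Bt.25008.1.A1_at at -0.73.

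The same model compared KK with AA cows. Among the 15 probe sets 0 passed for KK minus AA, where the smallest adjusted p by limma was 0.909, as did 0 of 24016 (0%). An unadjusted p under 0.05 was found in 2 of 15, against 3.51% of all probe sets. The CUX1 lead had a KK minus AA difference of 0.35 (SE 0.11), with means of 0.18 ± 0.04 in KK (SD, n = 4) and -0.17 ± 0.16 in AA (SD, n = 11). LAMC1 Bt.19181.1.A1_at had -0.42 (SE 0.15), with -0.18 ± 0.18 in KK (SD, n = 4) and 0.24 ± 0.31 in AA (SD, n = 11). This difference is not independent of the departure, since KK and AA arrays enter both. For the other leads KK minus AA was 0.11 (SE 0.20) in BLTP3B, 0.13 (SE 0.17) in CCAR1, 0.08 (SE 0.13) in LOC526041, 0.28 (SE 0.25) in PHF3 and -0.22 (SE 0.16) in LAMC1.

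Single arrays decided the call, while the departures of the leads kept their sign. With each of the 28 arrays left out in turn, the departure stayed between -0.88 and -0.76 in BLTP3B, -0.64 and -0.49 in the PHF3 lead, and -0.60 and -0.44 in the CCAR1 lead. It stayed between -0.46 and -0.40 in LOC526041, 0.34 and 0.43 in the LAMC1 lead, and -0.30 and -0.25 in the CUX1 lead. The sign held in 14 of 15 probe sets, all but LAMC1 Bt.25008.1.A1_at, which changed sign in 14 of 28 fits. LAMC1 Bt.19181.2.S1_at, at 0.12 with all arrays, was 0.065 without AA 2 and 0.19 without KK 1. Yet BLTP3B passed the threshold in only 7 of the 28 fits, those without KK 1, AA 1, AA 3, AA 5, AA 7, KA 7 or KA 9, and in the other 21 no probe set passed. Leaving out KK 3 moved BLTP3B and CCAR1 the most, AA 2 the PHF3, LOC526041 and LAMC1 leads, and KA 8 the CUX1 lead.

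Without both AA 2 and AA 9, 6 probe sets passed (0.0250%), and BLTP3B, LOC526041 and the leads of PHF3 and LAMC1 were 4 of them. Leaving out 1 more array at a time then gave from 0 to 19 calls in 26 fits, with 19 without KA 1 or AA 1 and 0 in 15 of the fits, those without any 1 of the 4 KK cows, 9 of the KA cows, or AA 6 or AA 8. BLTP3B passed in 11 of these, LOC526041 in 9, the PHF3 and LAMC1 leads in 7 each and the CCAR1 lead in 1. With array weights, which gave AA 2 a weight of 0.105 and AA 9 one of 0.146, 80 probe sets passed (0.333%), 6 of them among the 15. These were the leads of BLTP3B, LOC526041, CCAR1, PHF3 and LAMC1 and, in CUX1, Bt.20129.2.S1_at rather than the lead. After quantile normalization 20 passed (0.0833%), 4 of them among the 15, the leads of BLTP3B, LOC526041, CCAR1 and LAMC1. The genes were chosen on this contrast, so nothing is read from how many of the 15 passed in these fits.

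Array number could be set against the departures only in part, since numbers 43 to 56 held no KK array. With the number ranges entered as a block, 0 probe sets passed (0%, limma), where the smallest adjusted p was 0.494 and 2247 had an unadjusted p under 0.05. The lead departures were then -0.88 in BLTP3B, -0.62 in CCAR1, -0.60 in PHF3, -0.51 in LOC526041, 0.37 in LAMC1 and -0.22 in CUX1. BLTP3B, CCAR1, PHF3 and LOC526041 lay farther from 0 with the block, and CUX1 and LAMC1 nearer. The sign was kept in 13 of 15 probe sets, all but Bt.19181.1.A1_at and Bt.25008.1.A1_at of LAMC1. Within numbers 29 to 42 the departures, which rest on 2 KA arrays, were -0.77 in BLTP3B, -0.64 in PHF3, -0.34 in CCAR1, -0.28 in LOC526041, 0.46 in LAMC1 and -0.23 in CUX1. Of the other probe sets CUX1 Bt.20129.2.S1_at had 0.20 there, LAMC1 Bt.23129.2.S1_at had 0.18, and LAMC1 Bt.19181.2.S1_at had 0.39. CCAR1 Bt.3197.1.A1_at had -0.09 there and -0.06 with the block, and changed sign to 0.05 with the block without AA 2 and AA 9. LAMC1 Bt.23129.3.S1_a_at had 0.0005 within numbers 29 to 42, against -0.16 over all arrays.

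BLTP3B had values of -0.72 and -0.51 in the 2 KA cows of the lower numbers, against means of 0.08 in the 8 AA cows and 0.23 in the 4 KK cows there. In the upper numbers the BLTP3B mean was -0.66 in 11 KA cows and 0.24 in 3 AA cows. LOC526041 differed more between ranges in KA: its 2 lower-number cows had -0.26 and 0.22, and its mean over the 11 upper-number cows was -0.15. Its AA means were 0.18 in the lower and 0.48 in the upper numbers.

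**Figure D4:**
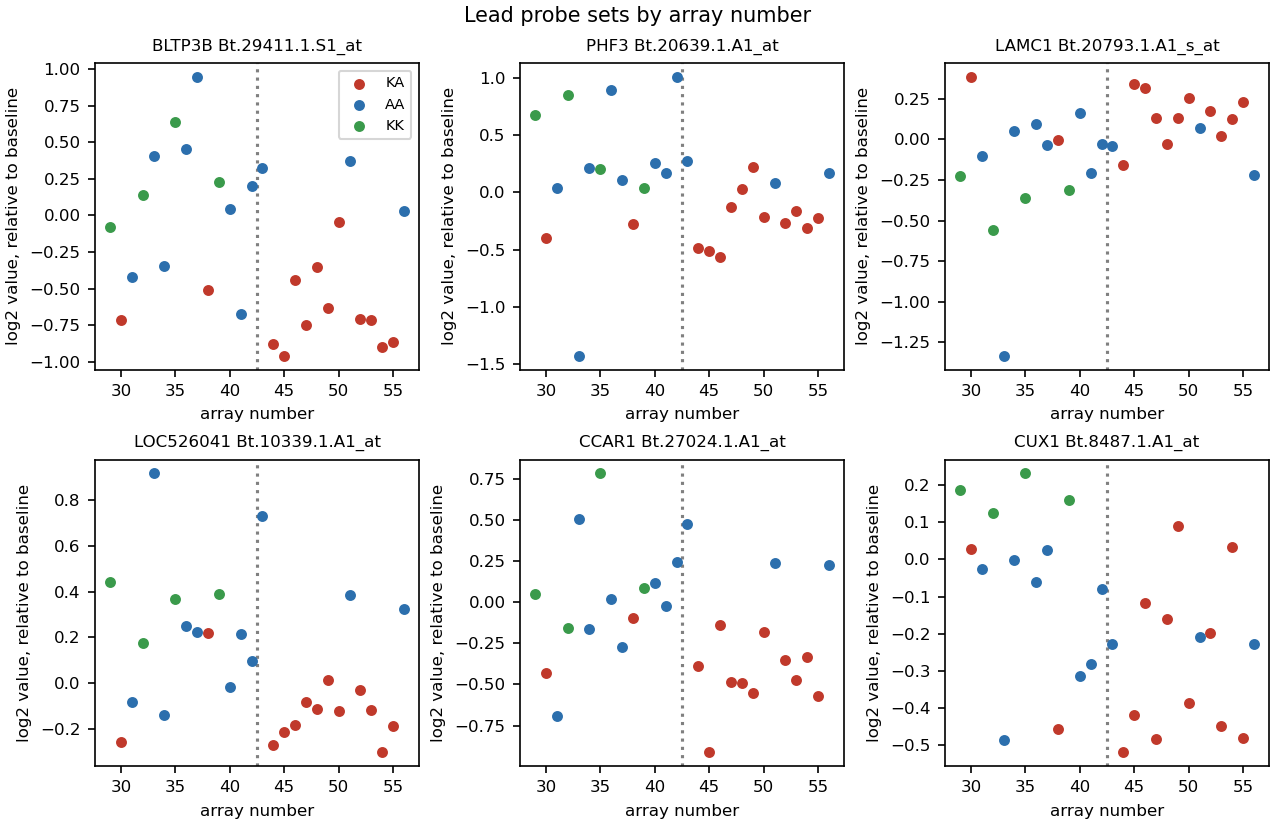
Log2 values of the lead probe sets (y axis, relative to a baseline per probe set) against array number (x axis), coloured by genotype, with a dotted line between numbers 42 and 43. KK arrays lie left of the line only, and in BLTP3B the KA cows lie low on both sides of it, at -0.72 and -0.51 on the left and with a mean of -0.66 on the right.

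The term for upper against lower numbers is estimated within genotypes and so does not use the choice of genes. For this term 0 of the 15 probe sets passed (limma, lowest adjusted p 0.523), against 1 of 24016 (0.00416%). An unadjusted p under 0.05 was found in 1 of 15, against 7.48% of all probe sets. It was LAMC1 Bt.19181.1.A1_at, at 0.31 (SE 0.12, adjusted limma p = 0.523), a probe set whose departure was 0.16 without and -0.05 with the block. In the leads the upper minus lower difference was 0.07 (SE 0.18) in BLTP3B, 0.12 (SE 0.15) in CCAR1, 0.11 (SE 0.12) in LOC526041, 0.06 (SE 0.22) in PHF3, 0.04 (SE 0.14) in LAMC1 and -0.07 (SE 0.10) in CUX1. The PHF3 and LAMC1 values were -0.10 and -0.02 after quantile normalization.

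**Figure D5:**
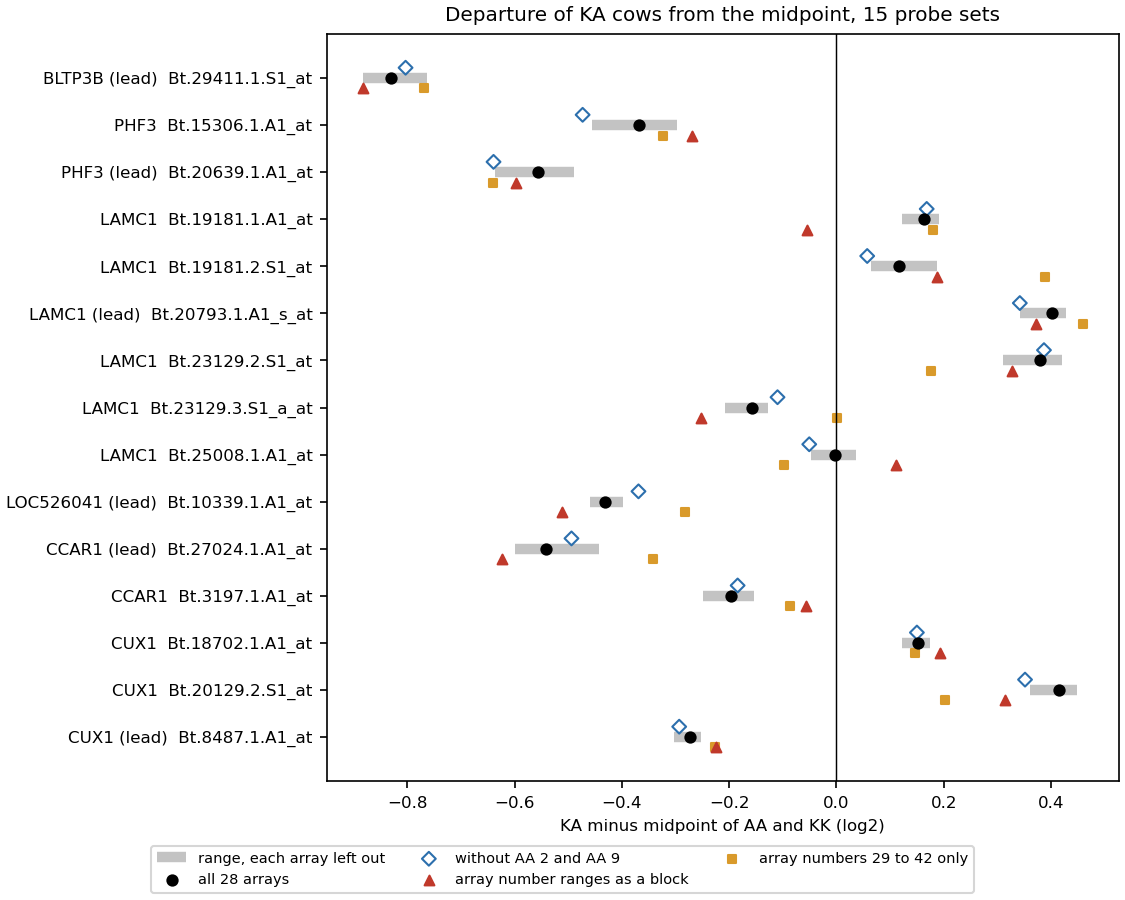
KA mean minus the AA and KK midpoint (x axis, log2) for the 15 probe sets (y axis). Black points use all 28 arrays, grey bars span the values with each array left out, blue diamonds leave out AA 2 and AA 9, red triangles use the number ranges as a block, and orange squares use numbers 29 to 42 only. BLTP3B stays between -0.88 and -0.76 with each array left out, whereas LAMC1 Bt.19181.1.A1_at moves from 0.16 to -0.05 with the block.

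The patterns most like each lead were found by Pearson's r over the arrays, which share their genotype groups and arrays AA 2 and AA 9, as a description. BLTP3B was most like CCDC3 (r = 0.75), the mitochondrial RNA methyltransferase TFB1M (r = 0.75) and CCAR1 (r = 0.73) over 28 arrays. Without AA 2 and AA 9 the nearest were GYPC (r = 0.78), RBM6 (r = 0.77) and the splicing factor SNW1 (r = 0.76), so none was shared. PHF3 was nearest to BCLAF1 in both sets of arrays (r = 0.84 and 0.76), with the chromatin remodeller CHD2 also in both (r = 0.75 and 0.72). CCAR1 had RBBP6 (r = 0.85 and 0.83) and OTUD4 (r = 0.84 and 0.83) in both. LOC526041 had DCAF17 (r = 0.83 and 0.72), LAMC1 had TMEM9 (r = 0.86 and 0.68), and CUX1 had EIF2AK2, the kinase that senses double-stranded RNA (r = 0.66 and 0.65).

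Other genes of the same families did not pass either contrast. Besides members, each gene was taken at its brightest probe set, and the median departure over all 9155 genes was 0.002. Of the other bridge-like lipid transfer proteins 2 of 9 were measured, VPS13D with a departure of -0.18 (SE 0.07) and the autophagy protein ATG2A with -0.09 (SE 0.13). Among other basement membrane genes and laminin receptors, 16 of 28 were measured, 9 with a positive and 7 with a negative departure, with a median of 0.06. Of the beta chains that join LAMC1 in laminins, LAMB1 was at -0.22 (SE 0.16) and LAMB2 at -0.12 (SE 0.21). These signs were opposite to that of the LAMC1 lead, which was chosen by its departure. Taken by the same rule as the other genes, at its only bright probe set, LAMC1 was at -0.16 (SE 0.11), the same sign as both. LAMB3, a beta chain of another laminin, departed by -0.14 (SE 0.13), and NID1, which links laminin to collagen, by -0.21 (SE 0.19).

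Of the transcript elongation and SPOC domain list, which holds relatives and partners of PHF3, 15 of 18 were measured, 7 positive and 8 negative (median -0.01), with DIDO1 at -0.10 (SE 0.13). Mediator and other partners of CCAR1 had 5 positive and 12 negative departures among 17 of 24 measured (median -0.05), with MED21 at -0.28 (SE 0.14) and MED12 at -0.09 (SE 0.13). The relatives of CUX1 had 2 of 6 measured, SATB1 at -0.15 (SE 0.07) and CUX2 at -0.05 (SE 0.06). For the departure an unadjusted limma p under 0.05 was found in 1 lipid transfer, 2 basement membrane, 1 elongation, 2 Mediator and 1 CUX1 list genes. Over all 9155 genes it was found in 808. For KK minus AA 0 genes passed in each of the 5 lists (limma, lowest adjusted p 0.909). There 0 had an unadjusted p under 0.05, against 336 of all 9155 genes, and lists this small could hold 0 at that share. The medians for KK minus AA were -0.04 for lipid transfer, -0.06 for basement membrane, -0.12 for elongation, -0.12 for Mediator and -0.05 for the CUX1 relatives, against -0.004 over all genes.

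Markers of T cells had a negative departure, as had every lead but that of LAMC1. The leads were chosen by their departure, so nothing is read from the shared sign. The r of the mean of the T cell markers was 0.76 with LOC526041, 0.69 with CCAR1 and 0.58 with BLTP3B. It was -0.12 with PHF3, 0.02 with CUX1 and -0.49 with LAMC1. All 7 of 7 T cell markers had a negative departure, and their mean ran from -0.54 to 0.31 (median -0.26) in KA, -0.45 to 1.46 (median 0.01) in AA and -0.09 to 0.81 (median 0.15) in KK. The departure of the T cell mean was -0.41, and -0.29 without AA 2 and AA 9, which had 1.11 and 1.46. B and plasma cell markers, 4 of 6 measured, had a negative departure in all 4. Their mean ran from -0.78 to 0.38 (median 0.005) in KA, -0.53 to 0.56 (median 0.07) in AA and -0.17 to 1.18 (median 0.002) in KK. The departure was -0.30, and -0.25 without AA 2 and AA 9. It is taken from group means, whereas the medians lay close together. The other 7 marker lists, which were luminal epithelium, milk proteins, myoepithelium, fibroblasts, endothelium, myeloid cells and adipocytes, had departures from -0.10 to 0.10. All 6 milk protein markers measured and all 4 adipocyte markers measured had a positive departure. Their means were low in AA 2 and AA 9, at -0.53 and -1.36 for milk proteins and -0.66 and -0.80 for adipocytes. Without these arrays the departure of the mean went from 0.09 to 0.008 for milk proteins and from 0.05 to -0.014 for adipocytes. The part of these cells in the results was not tested, and in a biopsy fewer cells of a type and less RNA per cell cannot be told apart. Values without levels cannot show whether a marker was absent, so the labelled tissue could not be checked against the levels of its milk proteins.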

How the data were processed

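RNA of 28 mammary biopsies was measured on 1-colour arrays, and the deposited table holds log2 values for 24128 probe sets with no missing value. Per the labels' protocols the authors used Bioconductor 2.7 in R 2.13. RMA and GCRMA are named in the submitters' processing notes, and the sources used here do not say which of them gave the deposited log2 values. The values lie around 0, so a baseline per probe set had been subtracted. The 112 control probe sets were left out.

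The platform annotation gave 1 symbol for 13292 probe sets, several for 86 and none for 10638, and the symbol was found in RefSeq (ARS-UCD2.0) for 13263 of the 13292 probe sets with 1 symbol. The level class came from rounding steps (at least 75% of values on the coarser step): 3908 probe sets were bright, 13932 intermediate and 6176 dim. For family and marker lists each gene was represented by its brightest class of probe set, with the plain type preferred and then the first by name.

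Tests used limma 3.58.1 in R 4.3.3 (lmFit, eBayes) with a mean per genotype, all 28 arrays and Benjamini-Hochberg adjustment over 24016 probe sets at 0.05. A second model added a term for array numbers 43 to 56 against 29 to 42. Correlations used 100000 permutations within genotypes in numpy 2.4.6, a test added to the planned description. The scripts were tested on simulated data. Replicate numbers of a genotype follow the order of the samples. The members and lists were chosen with earlier results of these data known. Named were all member probe sets, the 3 genes most like each lead, and up to 4 genes of each list by p for KK minus AA. Alternatives were quantile normalization, centring, leaving out dim probe sets, array weights, robust variances, array number, a threshold of 0.10 and leaving out arrays. Probe and transcript sequences were not used here.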

Additional observations from a re-analysis of the deposited data

How the results depend on the processing

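The count of probe sets past the threshold for the departure was 1 in the analysis reported and changed with the setting. It was 20 after quantile normalization, 80 with array weights, 6 without AA 2 and AA 9, 0 with the array number ranges as a block, 2 with array number as a linear covariate and 0 within numbers 29 to 42, where only 14 arrays remain. The 2 with the linear covariate had positive departures, and BLTP3B and the other members were not among them. With the block and without AA 2 and AA 9 the count was 1, also positive and not a member. With arrays left out one by one the count ran from 0 to 19, the 19 without AA 2, AA 9 and either KA 1 or AA 1. The cause was not tested. The departures of the 6 leads moved by less than 1 SD between cows under all alternatives run, a bound wider than the SE of a departure. Within numbers 29 to 42 the CCAR1 lead moved from -0.54 to -0.34 and LOC526041 from -0.43 to -0.28. With arrays left out the departures ran from -0.88 to -0.74 in BLTP3B, -0.71 to -0.49 in PHF3 and 0.31 to 0.43 in LAMC1. They ran from -0.46 to -0.35 in LOC526041, -0.60 to -0.40 in CCAR1 and -0.32 to -0.25 in CUX1. These ranges include fits without AA 2, AA 9 and 1 further array, which, with the block without AA 2 and AA 9, were added after seeing the data.

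Between KK and AA 0 probe sets passed under every alternative, and with arrays left out the difference changed sign in BLTP3B (-0.023 to 0.22) and CCAR1 (-0.067 to 0.25). For the array number term the count was 1, against 0 after quantile normalization, with array weights, without AA 2 and AA 9 and with AA and KA arrays only, 2 at a threshold of 0.10, 40 with linear array number, and 0 to 10 with arrays left out, the 10 without KA 2. That term turned in the PHF3 lead to -0.10 after quantile normalization, -0.12 with array weights and -0.070 without AA 2 and AA 9. In the LAMC1 lead it turned to -0.024, -0.037 and -0.057. With arrays left out it ran from -0.069 to 0.12 in PHF3, -0.051 to 0.12 in LAMC1 and -0.14 to 0.0044 in CUX1. The cause was not tested. No paired analysis was possible because the labels give the cows no shared replicate numbers. Background correction could not be varied on processed values.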
